A study of Mus musculus with 8 samples.

Results

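The immunoglobulin heavy chain V genes (Ighv genes) were followed across the B cells of mouse spleen: how often each gene was used, how evenly, and whether usage differed with genotype or sort. The members were all rows of the feature lists whose symbol starts with Ighv, 185 of 32285 genes. They carried 183 symbols, since Ighv5-8 and Ighv1-13 each stand on 2 rows, and they fell into 16 families by the number after Ighv. Of the 185 members, 183 had a position in GENCODE vM21, all on chromosome 12 between bases 113572927 and 116010093 of GRCm38, 113 of them annotated as V genes and 70 as V pseudogenes. A unique molecular identifier (UMI, 1 counted transcript) was found for 149 members, 110 of the V genes and 39 of the pseudogenes, and 110 members were found in every library.

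Each B cell joins 1 V gene, 1 D and 1 J segment on a heavy chain allele during its development in the bone marrow, and the V gene encodes most of the antigen-contacting part of the antibody. The V gene chosen is therefore a mark that a cell passes on to its daughters. Naive B cells carry a broad set of V genes. In the germinal centre, activated B cells divide, mutate their V regions and are selected by antigen. Plasma cells, the antibody-secreting end stage, transcribe immunoglobulin genes at very high levels. Members of 1 clone share the V gene, but cells with the same V gene need not be of 1 clone.

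The 8 libraries fell into 4 groups of 2, by genotype (control or cKO) and by sort (total splenocytes or YFP+ cells), with 1 library of each group in each of 2 batches. Every mouse was of C57BL/6J background, 2 months old, and carried Cγ1Cre and Rosa26-YFP LSL, a reporter that turns yellow fluorescent once Cre has acted. The cKO mice carried Eif3e fl/fl in addition, the floxed gene of a subunit of the translation initiation factor eIF3, and the controls did not. Cγ1Cre is expressed when a B cell transcribes the γ1 constant region, so deletion is limited to activated B cells, and the YFP+ sort collects cells in which Cre has acted at some time. Each library pooled the cells of 2 to 3 mice, so the p-values measure the spread between pools, and no source used here says whether total and YFP+ libraries of a genotype and batch shared mice. Eif3e, the targeted gene, stood at 227 and 267 CPM (UMIs scaled to a fixed total) over all cells of the control YFP+ libraries and at 235 and 279.95 CPM in the cKO YFP+ libraries, and at 244, 289, 240.5 and 288 CPM in the total libraries (control 1 and 2, cKO 1 and 2). In naive B-like cells it was higher in cKO, at 211 and 264 CPM in control YFP+ against 291 and 365 CPM in cKO YFP+, while GCB-like (264 and 297 against 272 and 304 CPM) and plasma cell-like YFP+ cells (107 and 136 against 108 and 117 CPM) overlapped. The deletion was therefore not seen in these counts, which come from transcript 3′ ends that may lie outside the deleted part, and directions below are those of libraries labelled cKO against libraries labelled control.

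Cell classes were rebuilt by clustering without immunoglobulin genes, and a class name followed by "-like" rests on marker genes such as Fcer2a, Klf2 and Bach2 for naive B, Bcl6, Mef2b and S1pr2 for germinal centre B (GCB), and Jchain, Xbp1 and Sdc1 for plasma cells. Of 83704 cells, 67136 were of the B lineage. A cell was assigned a leading Ighv gene when 1 gene had at least 2 UMIs and more than all other Ighv genes of the cell together, which gave 9815 assigned cells (14.6% of the B lineage). Ighv genes took 98233 UMIs in all, 0.0142% of the total, and the counts come from transcript 3′ ends while the V region lies at the 5′ end. A total of 124 members led at least 1 B-lineage cell.

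The germline ends of the members that carry the results are shown so that their differences near the junction can be seen. Each line is the last 99 bases of the annotated V segment (GENCODE vM21 transcripts, GRCm38), the part next to the junction with D. Capitals mark the codon of the conserved cysteine that closes the framework before the third hypervariable loop. All these genes lie on the minus strand of chromosome 12. Ighv9-3 and Ighv3-6 are shown for the naive repertoire, Ighv14-3, Ighv1-5 and Ighv4-1 for activated cells, and Ighv11-2 and Ighv12-3 for an unnamed cluster described further on.
Ighv9-3 (chr12:114140692-114141122): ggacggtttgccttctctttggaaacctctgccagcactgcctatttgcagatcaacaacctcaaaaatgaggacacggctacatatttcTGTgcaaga
Ighv3-6 (chr12:114288152-114288582): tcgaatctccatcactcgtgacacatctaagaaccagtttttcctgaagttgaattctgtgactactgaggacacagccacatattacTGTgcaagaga
Ighv14-3 (chr12:114059845-114060321): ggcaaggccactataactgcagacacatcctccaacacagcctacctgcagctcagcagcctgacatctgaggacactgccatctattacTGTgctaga
Ighv1-5 (chr12:114513330-114513807): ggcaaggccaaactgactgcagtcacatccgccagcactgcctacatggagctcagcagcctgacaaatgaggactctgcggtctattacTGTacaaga
Ighv4-1 (chr12:113948282-113948796): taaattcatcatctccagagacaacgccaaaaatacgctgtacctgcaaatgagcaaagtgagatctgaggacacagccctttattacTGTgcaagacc
Ighv11-2 (chr12:114048241-114048812): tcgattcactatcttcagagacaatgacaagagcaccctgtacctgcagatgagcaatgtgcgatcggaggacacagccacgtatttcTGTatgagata
Ighv12-3 (chr12:114366521-114366954): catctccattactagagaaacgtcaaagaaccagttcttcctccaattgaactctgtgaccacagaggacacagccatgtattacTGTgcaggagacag

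Over their last 280 bases the shown genes were 55.6% to 77.6% identical to each other, and within families the copies are closer. Over the 113 V genes the median identity to the closest other member was 95.7%, and 65 had a copy at 95% identity or more, 16 of them at 98% or more. Ighv9-3 was 95% identical to Ighv9-2, Ighv14-3 95.7% to Ighv14-1, Ighv4-1 95.7% to the pseudogene Ighv4-2, and Ighv11-2 98.6% to Ighv11-1. How reads that match several copies were counted could not be learned from the sources used here, so usage of close copies is uncertain to that extent. Pseudogenes took 6.16% of Ighv UMIs and led 525 cells (5.35% of assigned cells).

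Naive B-like cells used a broad set of Ighv genes in all 8 libraries. Ighv9-3 was the most used gene in 7 libraries, leading 5.80% and 7.37% of assigned naive B-like cells of control total, 7.89% and 7.61% of cKO total, 7.05% of control YFP+ 1, and 7.72% and 8.35% in the cKO YFP+ libraries. The exception was control YFP+ 2, where Ighv9-3 led 3 of 150 cells (2.00%, 95% Wilson interval 0.683 to 5.71) and Ighv5-6 led 8 (5.33%). Ighv3-6 led 3.38% to 6.80% of cells and Ighv1-9 1.33% to 5.13%. The 3 leading genes together took 13.3% to 18.1% of assigned cells, so no gene dominated a naive library. The plot of naive usage shows that the intervals of the libraries overlap for most genes, with only counting error in them.

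**Figure D1:**
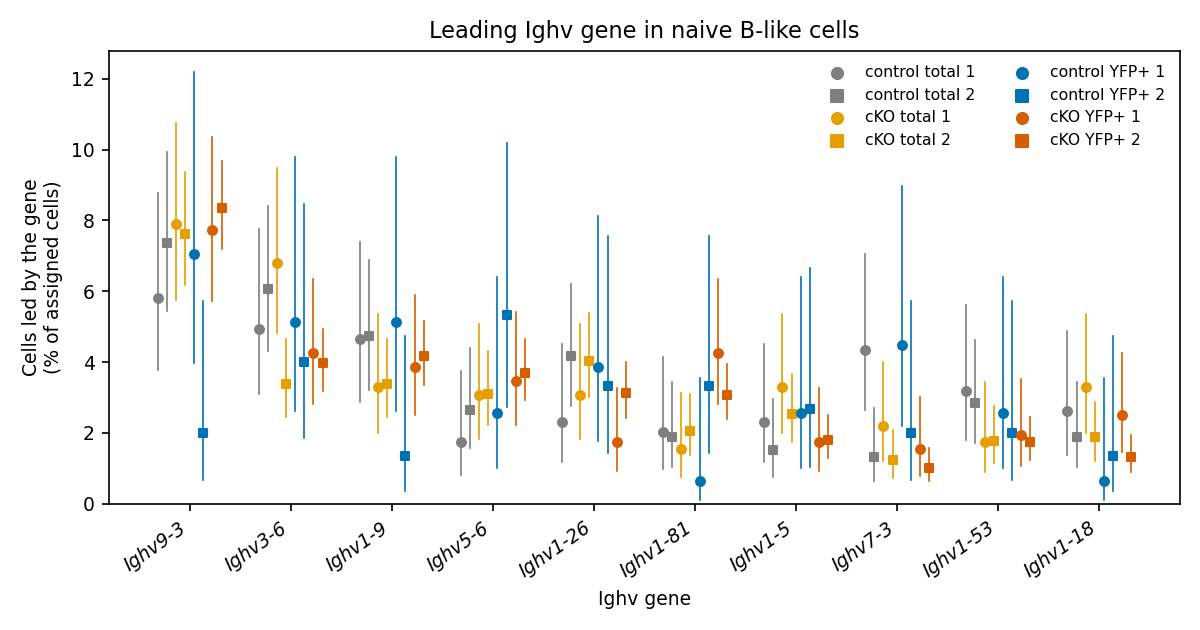
Share of assigned naive B-like cells led by each of the 10 named Ighv genes with the highest mean share, in percent on the y axis, for the 8 libraries (colour, group; circle, batch 1; square, batch 2), with 95% Wilson intervals that cover counting error only. Ighv9-3 stands at 5.80% to 8.35% in 7 libraries and at 2.00% in control YFP+ 2, and all other genes stay under 7%.

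The call of a leading gene in naive cells rested on few UMIs. Between 6.21% and 25.1% of naive B-like cells were assigned, with cKO total 2 (23.2%) and cKO YFP+ 2 (25.1%) above the 6.21% to 14.99% of the other 6, and the median leading gene had 2 UMIs in every library. In 75% to 87.3% of assigned naive B-like cells only 1 Ighv gene was seen. T cells transcribe no rearranged Ighv gene, so they give the level of Ighv UMIs from other cells. This holds free RNA and doublets (droplets with more than 1 cell), which were kept, and the 2 were not told apart. Of the T cells 4.51% to 20.1% had an Ighv UMI, against 38.4% to 63.3% of naive B-like cells. Only 0.423% to 1.46% of the T cells of the total libraries were assigned. Median UMIs per cell were 6426 to 7669 in those T cells and 4150 to 6032 in the naive B-like cells of the same libraries. In the YFP+ libraries, where T cells were few, 1 of 379, 0 of 66, 3 of 411 and 2 of 34 T cells were assigned (control 1 and 2, cKO 1 and 2), and 0 of 66 allows a share of up to 4.55%. All these limits cover counting error only.

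By family, Ighv1, the largest with 93 members, led 46.9% to 56% of naive B-like cells (median 50.1% over libraries). Ighv5 followed with 8.13% to 15.3%, Ighv9, with 4 members, with 2.00% to 10.1%, and Ighv3 with 6.67% to 11.8%. Usage was also read by position. With the 2437 kb of the locus split into 4 equal parts from the end next to the D segments, the first part (53 members) led 32.3% to 36.2% of naive B-like cells, the second (53 members) 26.0% to 34.6%, the third (43 members) 11.0% to 18% and the farthest (34 members) 18.2% to 23.3%. In each of the 8 libraries the first part was above the third and the fourth, which hold fewer members. Shares per member were not compared.

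The first comparison asked whether Ighv usage in naive B-like cells differed with genotype. Numbers of cells led by each gene were compared by edgeR's quasi-likelihood test with the assigned cells as library size, with Benjamini-Hochberg adjustment over the Ighv genes tested. No gene was called in the YFP+ libraries (0 of 6 tested, 0%) or in the total libraries (0 of 11, 0%), and in neither was any gene under an unadjusted p of 0.05. DESeq2 called 0 in both as well. These usage tests hold Ighv genes alone, so the share called has no other genes to be set against. Summed UMIs were compared in the same way over all genes of the genome. In YFP+ naive B-like cells 0 of 79 Ighv genes were called, none of them under an unadjusted p of 0.05, where 0.764% of all 12831 genes tested were called. In total naive B-like cells it was 0 of 79, with 1 under an unadjusted p of 0.05 and 0.0632% of all 12661 genes called, and DESeq2 called 0 in both. Of these 79 genes 40 were higher and 39 lower in cKO in each comparison, with a median log2 difference of 0.01 in both, beside a median over all genes of 0.02 and 0.00. With control YFP+ 1 left out, 1 Ighv gene was called lower in YFP+ naive B-like cells, where 2.40% of all genes were called in the same fit. In the other fits lacking 1 library no Ighv gene was called by edgeR, where 4.55%, 1.62% and 3.01% of all genes were called in YFP+ naive B-like cells (without cKO 1, cKO 2 and control 2) and 3.03%, 0.774%, 1.53% and 2.14% in total naive B-like cells (without cKO 1, cKO 2, control 1 and control 2). In these fits 3 to 7 Ighv genes were under an unadjusted p of 0.05.

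The sort was compared next. Between control YFP+ and control total 0 of 4 tested genes differed in usage in naive B-like cells, and between cKO YFP+ and cKO total 0 of 34 (edgeR, 0% called in both), with 0 and 4 genes under an unadjusted p of 0.05. DESeq2 called 0 in both. The difference of the genotype effect between sorts was tested in 20 genes as an interaction term, and the smallest adjusted p was 0.659 (edgeR).

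Evenness was read as the effective number of Ighv genes, the inverse of the chance that a pair of assigned cells share their leading gene, corrected for the number of assigned cells. A library in which all genes were used alike would have an effective number equal to the number of genes. In naive B-like cells of the total libraries it was 51.3 and 44.7 for control and 44.6 and 50.1 for cKO. In those of the YFP+ libraries it was 44.1 and 59.8 for control and 47.0 and 43.7 for cKO. The 4 groups overlapped. The log2 ratio of cKO over control was −0.18 in YFP+ (exact two-sided permutation test over libraries, p = 0.667, n = 2 and 2) and −0.02 in total cells (exact permutation p = 0.667, n = 2 and 2). With 2 against 2 libraries this exact test cannot go below p = 0.333, and both signs turned under other settings.

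**Figure D2:**
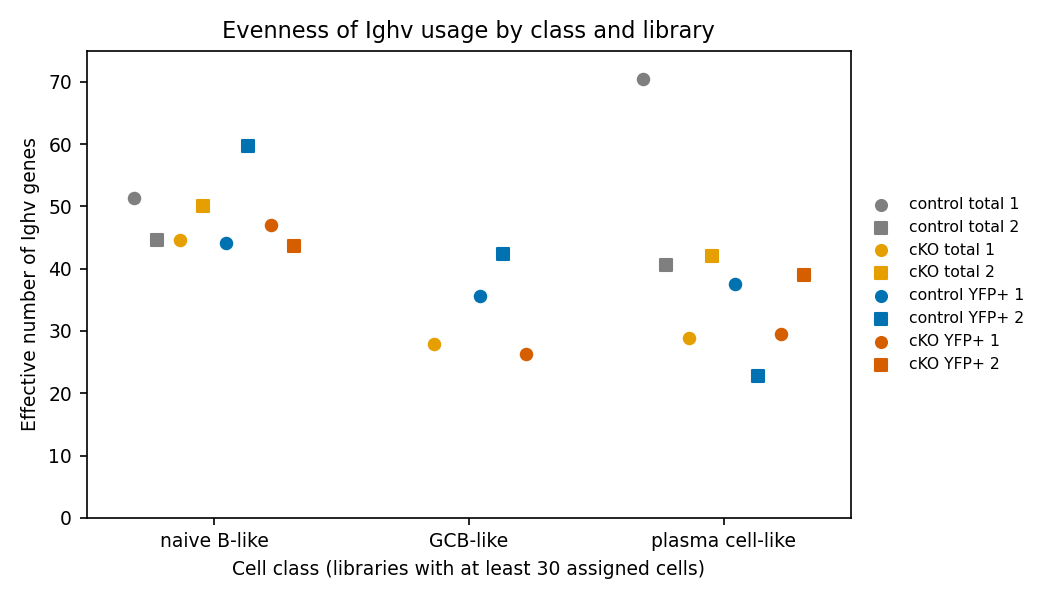
Effective number of Ighv genes (y axis) in naive B-like, GCB-like and plasma cell-like cells of each library with at least 30 assigned cells (colour, group; circle, batch 1; square, batch 2). Naive B-like cells lie between 43.7 and 59.8 in all 8 libraries, while plasma cell-like cells spread from 22.8 in control YFP+ 2 to 70.5 in control total 1.

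Plasma cell-like cells carried the most Ighv RNA, at 558 to 1328 CPM against 96.8 to 190.4 CPM in naive B-like cells. Between 72.1% and 86.7% of them were assigned, with a median of 7 to 18 UMIs for the leading gene. A second Ighv gene with at least 2 UMIs was seen in 17.0% to 36.6% of plasma cell-like cells, and the parts of free RNA, doublets and reads of close copies in this were not tested. The control YFP+ libraries held 895 and 1048 plasma cell-like cells and the cKO YFP+ libraries 113 and 92. The total libraries held 57 and 41 (control) and 59 and 98 (cKO).

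The effective number of Ighv genes in plasma cell-like cells was 37.6 and 22.8 in control YFP+, 29.5 and 39.0 in cKO YFP+, 70.5 and 40.6 in control total, and 28.9 and 42.0 in cKO total. In YFP+ cells the groups overlapped, and the log2 ratio of cKO over control was 0.21 (exact two-sided permutation p = 0.667, n = 2 and 2). The sign turned without control YFP+ 2 (−0.15) and with the exponential of the Shannon entropy, a measure that grows with the number of assigned cells. Within each YFP+ library the number was lower in plasma cell-like than in naive B-like cells, at 0.852 and 0.382 times the naive value in control 1 and 2 and at 0.628 and 0.892 times in cKO 1 and 2. The mean log2 difference was −0.61, lower in 4 of 4 YFP+ libraries (exact paired permutation test, two-sided, p = 0.125, the smallest value 4 libraries allow), and −0.36 without control YFP+ 2. With the exponential of the Shannon entropy, or with at least 3 UMIs for the leading gene, it was lower in 3 of 4, with control YFP+ 1 the exception (exact permutation p = 0.25 in each). The total libraries were not part of this test: there the number was higher in plasma cell-like than in naive B-like cells in control total 1 (70.5 against 51.3) and lower in the other 3. The 2 classes differ in depth as well as in stage, with median counts of 2813 to 6070 UMIs in naive B-like and 18399 to 26847 in plasma cell-like cells of these libraries, and the part of depth in this difference was not tested.

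The lowest evenness, in control YFP+ 2, went with Ighv14-3. This gene led 124 of 756 assigned plasma cell-like cells of that library (16.4%, 95% Wilson interval 13.9 to 19.2). In control YFP+ 1 it led 20 of 716 (2.79%), and in the cKO YFP+ libraries 0 of 86 and 1 of 70. In the total libraries it led 2 of 48 and 4 of 33 cells in control and 0 of 48 and 2 of 85 in cKO, and the 4 of 33 (12.1%) were in control total 2, which shares its batch number with control YFP+ 2. In naive B-like cells the gene led no more than 2.67% in any library.

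Control YFP+ 1 had other leading genes. Ighv1-5 led 54 of 716 cells (7.54%), against 3 of 756 in control YFP+ 2, 0 of 86 in cKO YFP+ 1 and 5 of 70 in cKO YFP+ 2. Ighv4-1 led 31 cells of control YFP+ 1 (4.33%) and 2 of control YFP+ 2. Ighv9-4 led 32 cells of control YFP+ 2 (4.23%) and 2 of control YFP+ 1, and Ighv2-9 led 47 (6.22%) and 4 (0.559%). For Ighv14-3, Ighv1-5, Ighv4-1, Ighv9-4 and Ighv2-9 the 95% intervals of the 2 control libraries did not overlap, as the plot of plasma usage shows. These intervals take cells as independent, which cells of 1 clone are not. Among the cKO libraries the leading genes were Ighv2-9 in cKO YFP+ 1 (9 of 86), Ighv9-3 in cKO YFP+ 2 (6 of 70) and in cKO total 2 (7 of 85), and Ighv1-26 in cKO total 1 (6 of 48). In control total 1 Ighv2-9, Ighv1-53, Ighv7-3 and Ighv8-8 led 3 of 48 cells each.

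**Figure D3:**
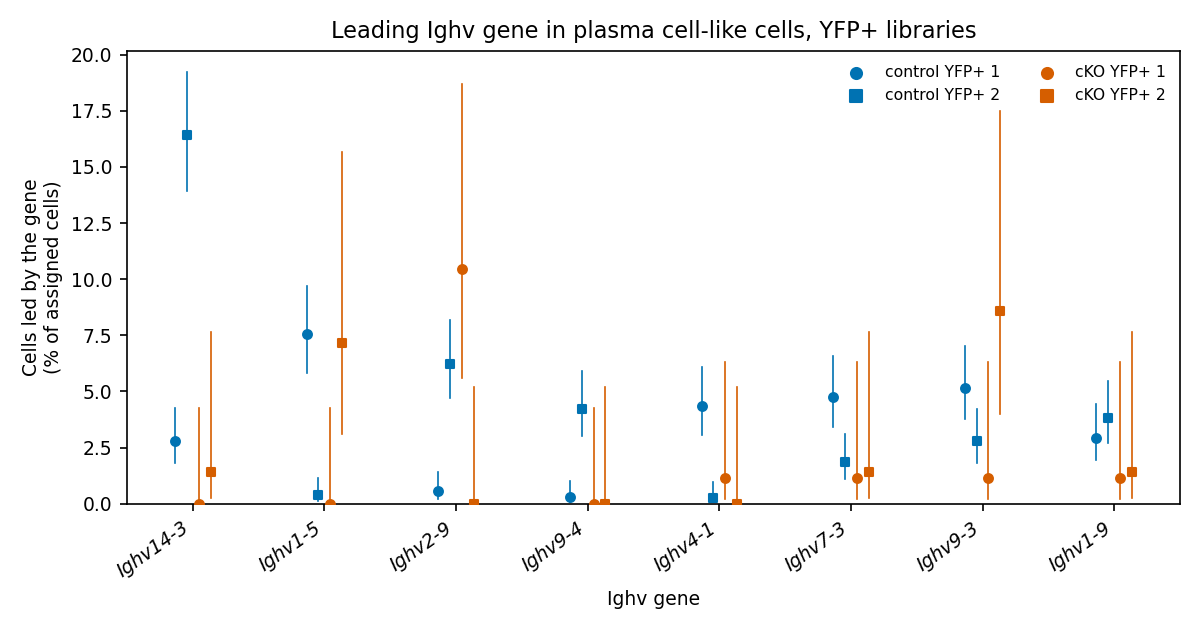
Share of assigned plasma cell-like cells led by 8 Ighv genes (y axis, percent) in the 4 YFP+ libraries (blue, control; orange, cKO; circle, batch 1; square, batch 2), with 95% Wilson intervals that cover counting error only. Ighv14-3 stands at 16.4% in control YFP+ 2 and at 2.79% or less in the other 3, and Ighv1-5 at 7.54% in control YFP+ 1 and 0.397% in control YFP+ 2.

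Kappa V genes were read beside the leading genes, because cells of 1 clone share both chains. A kappa V gene (Igkv) was assigned by the same rule, from kappa genes alone. Of the plasma cell-like cells with a light chain call, Iglv1, a lambda V gene, led 209 of 585 in control YFP+ 1. In control YFP+ 2 it led 268 of 625. A kappa call therefore need not be the light chain that the cell uses most. Of 52 cells of control YFP+ 1 that were led by Ighv1-5 and had a kappa call, 47 carried Igkv17-121, and it was found in 64 of all 625 assigned plasma cell-like cells of that library with a kappa call. The isotype with most UMIs was Ighm in 43 of the 54. Igkv17-121 was also the most frequent kappa gene of Ighv9-3 in that library, in 13 of 33 cells. Ighv4-1 went with Igkv6-17 in 21 of 29 cells of control YFP+ 1 (27 of 625 in all), and Ighv1-80 with Igkv4-55 in 17 of 24. In control YFP+ 2 Ighv1-78 went with Igkv3-7 in 20 of 23 cells, Ighv1-9 with Igkv12-44 in 19 of 26 and Ighv9-4 with Igkv17-127 in 20 of 32.

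Ighv14-3 had the lowest share of a single partner among the 20 sets of cells plotted. Among 113 of its cells with a kappa call in control YFP+ 2, 31 different kappa genes were seen, and the most frequent, Igkv10-96, was found in 15 (13.3%, against 9.57% of all assigned cells of that library). Its isotype was Ighg2c in 65 of 123 cells, Ighg1 in 30 and Ighg2b in 15. The most frequent V gene of control YFP+ 1 was thus found mostly with 1 kappa gene and IgM. That of control YFP+ 2 was found with many kappa genes and with switched isotypes. The libraries differed in isotype as well. Ighm had most UMIs in 370 of 715 assigned plasma cell-like cells of control YFP+ 1 and in 175 of 755 of control YFP+ 2. Ighg2c did so in 40 of 715 and 247 of 755. The part of this library difference in the isotypes of the 2 V genes was not tested. These counts describe the cells of 1 library each, with no replicate.

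**Figure D4:**
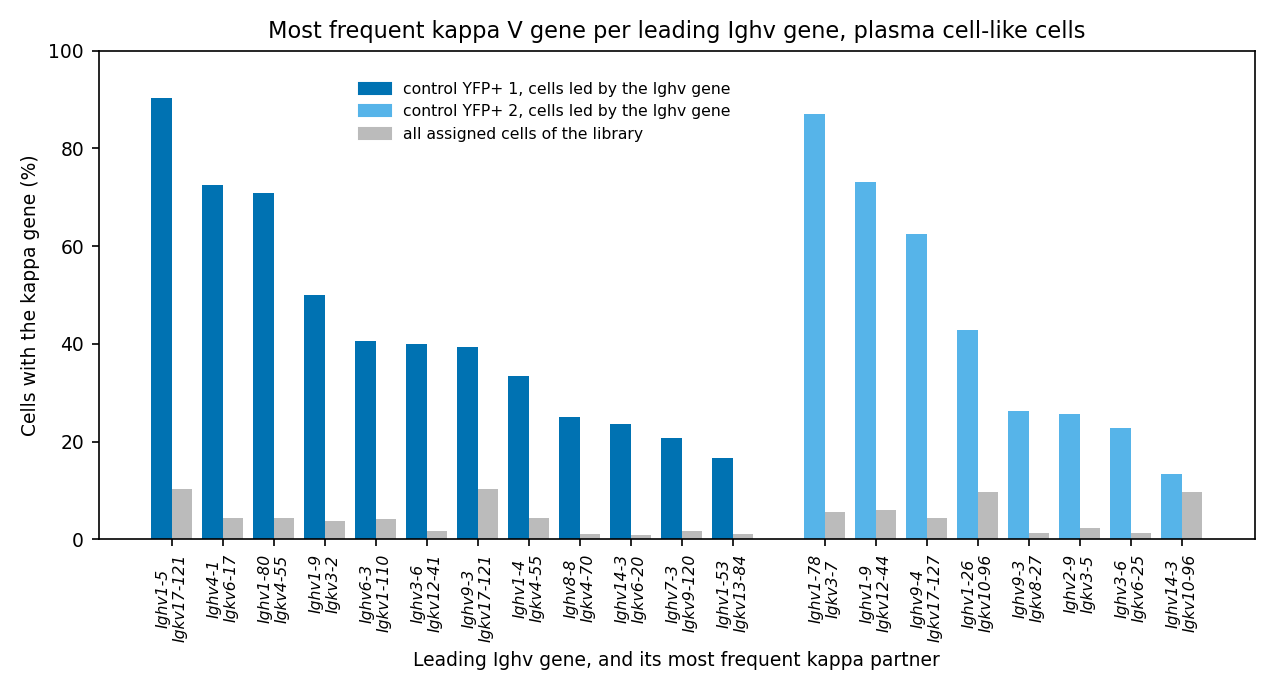
For each Ighv gene that led at least 20 plasma cell-like cells of a control YFP+ library, the share of its cells that carried its most frequent kappa V gene (blue bars) beside the share of that kappa gene among all assigned plasma cell-like cells with a kappa call (grey bars), in percent. The share is 90.4% for Ighv1-5 with Igkv17-121 and 13.3% for Ighv14-3 with Igkv10-96.

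Pairs of 1 Ighv and 1 Igkv gene found in 5 or more cells numbered 21 in control YFP+ 1 and held 223 of 625 cells with both calls (35.7%), and 33 in control YFP+ 2 with 285 of 690 (41.3%). In cKO YFP+ 1 they numbered 3 and held 17 of 78 cells (21.8%), and in cKO YFP+ 2 there were none among 68 cells. The control libraries hold many more cells, and more cells allow more such pairs, so the values are given side by side and not compared. In the total libraries no pair reached 5 cells.

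The V genes behind each isotype were read next. Ighe, the constant region of IgE, had most UMIs in 27 of 70 assigned plasma cell-like cells of cKO YFP+ 2, 5 of 86 of cKO YFP+ 1, 33 of 85 of cKO total 2 and 5 of 48 of cKO total 1. In control it did so in 2 cells of each YFP+ library and in 0 and 1 cell of the total libraries. The Ighe cells of cKO YFP+ 2 used 22 Ighv genes over 27 cells, with no gene in more than 2 cells, those of cKO YFP+ 1 used 4 over 5 cells, and those of cKO total 2 used 24 over 33 cells, again with at most 2 cells a gene. The Ighg2c cells of control YFP+ 2 had an effective number of 11.0 over 247 cells, with Ighv14-3 in 65, and its Ighg1 cells 12.3 over 119 cells, with Ighv14-3 in 30. The Igha cells of control YFP+ 1 had 15.6 over 126 cells, with Ighv9-3 in 21, and the Ighm cells 29.7 over 370, with Ighv1-5 in 43. The Igha cells of control YFP+ 2 had 57.4 over 63 cells. In cKO YFP+ 1 the Ighg1 cells had 7.67 over 23 cells, with Ighv1-50 in 7, and the Igha cells 11.4 over 19, with Ighv2-9 in 5, so low numbers were found in both genotypes.

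In plasma cell-like YFP+ cells the test of usage between genotypes over libraries called 0 of 13 Ighv genes (edgeR, 0%). Of these, 1 was under an unadjusted p of 0.05, and DESeq2 called 0. SEs of the log2 fold changes ran from 0.41 (Ighv1-82) to 2.30 (Ighv14-3), so this test cannot exclude large differences. The test of summed UMIs gave 8 calls among 75 Ighv genes tested, 1 higher and 7 lower in cKO, where 1.11% of all 11485 genes tested were called. The control libraries hold many more of these cells, and 44 of the 75 reached the count minimum of the filter in both control libraries but not in both cKO libraries, against 2 the other way round. Of the 8 called genes 6 were among the 44, all lower in cKO, so the filter favours lower calls and the balance of directions is no result. The other 2, Ighv1-9 and Ighv1-69, reached the minimum in all 4 libraries. The batch number was also fitted as a block. With so few libraries this leaves little to measure the spread of each gene, so its p-values lean on the spread shared over genes. With the block 17 were called, 1 higher and 16 lower, where 2.10% of all genes were called in the same fit. Among the lower were frequent genes of the control libraries: Ighv14-3 (log2 fold change −4.45 ± 0.41 SE, edgeR adjusted p 0.000921 with the block and 0.644 without it), Ighv4-1 (−3.11 ± 0.26, adjusted p 0.000615 and 0.95) and Ighv9-4 (−3.96 ± 0.51, adjusted p 0.00516 and 0.153). These 3 had been named for the many cells they led in a control library, and each reached the count minimum in both libraries of control alone, so their direction is no independent result. In the test of usage Ighv14-3 had an edgeR adjusted p of 0.61. What follows is again the number of Ighv genes called in the test of summed UMIs. Without cKO YFP+ 1 it was 31 (2.24% of all genes), without cKO YFP+ 2 29 (1.57%) without control YFP+ 1 4 (0.450%) and without control YFP+ 2 6 (0.498%). With all 8 libraries in 1 model 0 were called.

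The 7 genes lower in cKO included 3 with no UMI in either cKO YFP+ library. The pseudogene Ighv4-2 stood at 24.4 and 11.4 CPM in control and 0 in both cKO libraries (TMM-scaled sums, edgeR adjusted p 0.0145). Its control UMIs lay in 29 of 895 and 16 of 1048 cells. In cKO, 0 of 113 and 0 of 92 cells allow shares of up to 2.65% and 3.26% of cells, so no fold is given. All 13 and 7 cells that Ighv4-2 led in control YFP+ 1 and 2 also had at least 2 UMIs of Ighv4-1, its close copy. Its counts therefore cannot be told apart from reads of Ighv4-1. The pseudogene Ighv1-14 stood at 9.998 and 4.63 CPM in control (edgeR adjusted p 0.0165), from 27 and 18 cells. Ighv1-77 stood at 3.82 and 4.52 CPM (edgeR adjusted p 0.00957), from 12 and 9 cells. Both were again at 0 in cKO. Of the 73 and 87 UMIs of Ighv1-77 in control YFP+, 40 and 36 lay in 1 cell each. In the plasma cell-like cells of the total libraries Ighv1-77 had 0 UMIs in both control libraries and 0 and 24 in cKO, the 24 from 1 cell. Ighv4-2 had 81 and 33 UMIs there in control and 0 and 9 in cKO, and Ighv1-14 had 14 and 22 in control and 0 and 13 in cKO. The groups of YFP+ libraries did not overlap in any of the 8 called genes. This largely follows from choosing the genes by a test of the same libraries and is no further result.

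The other 4 lower genes kept a few counts in cKO. Ighv5-17 stood at 17.2 and 7.91 CPM in control and at 0 and 0.419 CPM in cKO (log2 fold change −5.05 ± 0.75 SE, edgeR adjusted p 0.00769). Ighv1-9, a common gene of naive cells, stood at 25.2 and 21.5 CPM in control and 1.46 and 6.28 CPM in cKO (−2.54 ± 0.45, adjusted p 0.0171). Ighv14-1 (−3.44 ± 0.75, edgeR adjusted p 0.0404) and Ighv2-6-8 (−2.23 ± 0.50, edgeR adjusted p 0.0469) were nearer to the threshold. Of the 7 and 3 cells that Ighv14-1 led in control YFP+ 1 and 2, 3 and 1 also had at least 2 UMIs of Ighv14-4, its closest copy (97.1% identical). The part of reads of close copies in its counts was not tested. The 4 and 15 UMIs of Ighv1-9 in cKO came from 1 cell in each library, while 21 and 29 cells were led by it in control. With the batch number as a block the adjusted p of Ighv1-9 was 0.0546, past the threshold, while the other 7 called genes stayed called. In the total libraries, on the scale of all UMIs, Ighv1-9 stood at 27.3 and 50.8 CPM in control and 50.6 and 31.8 CPM in cKO, and these groups overlapped. Ighv5-17 stood at 7.18 and 54.6 CPM there in control and 0.767 and 7.03 CPM in cKO, from 10, 58, 1 and 23 UMIs. Ighv14-1 had 0 UMIs in both control total libraries and 2 and 0 in cKO total, and Ighv2-6-8 had 6 and 13 in control and 1 and 14 in cKO.

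Ighv1-69 was the only called gene that was higher in cKO, at 16.1 and 11.7 CPM against 4.14 and 1.77 CPM in control (log2 fold change 2.21 ± 0.42 SE, edgeR adjusted p 0.0201). In cKO YFP+ 1, 32 of its 44 UMIs lay in 1 cell, and in cKO YFP+ 2, 17 of 28 did. It led 1 and 2 cells there and 7 and 1 in control. In the total libraries it had 17 and 9 UMIs in control and 62 and 54 in cKO. A sum of UMIs weights each cell by its output, so a few cells set these values.

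**Figure D5:**
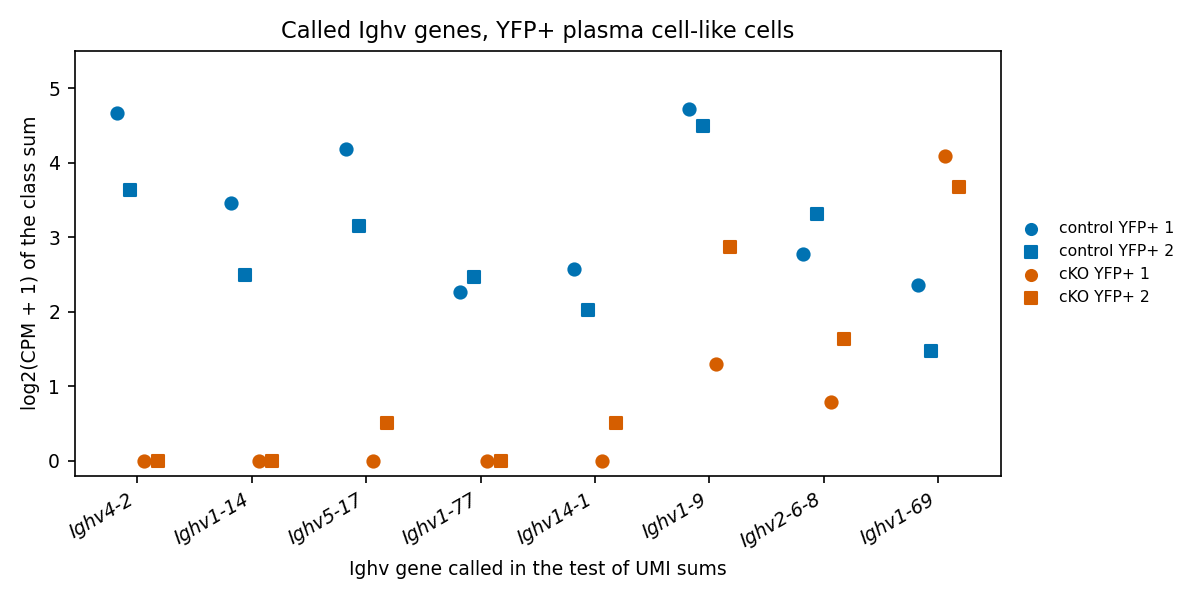
Level of the 8 Ighv genes called in YFP+ plasma cell-like cells, as log2(CPM + 1) of the TMM-scaled class sums on the y axis, in the 4 YFP+ libraries (blue, control; orange, cKO; circle, batch 1; square, batch 2). Ighv1-69 is the gene that is higher in both cKO libraries, and Ighv4-2, Ighv1-14 and Ighv1-77 lie at 0 in both.

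GCB-like cells carried little Ighv RNA, and their calls are less sure. Ighv genes stood at 73.4 and 61.9 CPM in GCB-like cells of control YFP+ and at 35.2 and 37.2 CPM in cKO YFP+, while the T cells of the same libraries stood at 40.0 and 42.9 CPM in control and 19.3 and 33.1 CPM in cKO. The part of free RNA in the GCB-like values was not tested. Between 3.19% and 10.2% of the GCB-like cells of the YFP+ libraries were assigned, which left 158 and 109 cells in control and 36 and 14 in cKO. Median counts were 12058 to 17564 UMIs in these cells.

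In the control YFP+ libraries Ighv4-1 and Ighv14-3 were frequent in GCB-like cells of the same library as in plasma cell-like cells. Ighv4-1 led 14 of 158 in control YFP+ 1 and 1 of 109 in control YFP+ 2, and Ighv14-3 led 3 and 10. Not every frequent gene of the plasma cell-like cells was frequent in GCB-like cells. Of 401 assigned GCB-like cells over all libraries, Ighv1-5 led 6, Ighv2-9 led 1 and Ighv9-4 led 8. In control YFP+ 2 Ighv14-3 took 8.83% of the Ighv UMIs of GCB-like cells, 8.82% of those of plasma cell-like cells and 3.62% of those of naive B-like cells. In cKO YFP+ 1 Ighv1-81 led 5 of 36 GCB-like cells, in cKO YFP+ 2 Ighv9-4 and Ighv1-19 led 2 of 14 each, and in cKO total 1 Ighv9-3 led 6 of 46. The effective number was 35.6 and 42.3 in control YFP+, 26.2 in cKO YFP+ 1, and 45.5 in cKO YFP+ 2 from only 14 cells. The log2 ratio of cKO over control was −0.17 (exact two-sided permutation p = 1, n = 2 and 2), −0.57 without cKO YFP+ 2 and 0.23 without cKO YFP+ 1. It was −1.53 with the exponential of the Shannon entropy, a measure that grows with the number of assigned cells, −1.27 with at least 3 UMIs for the leading gene, which left 6 cells in cKO YFP+ 1 and no value for cKO YFP+ 2, and −0.53 with at least 1 UMI (exact permutation p = 0.333 in each, the smallest possible). Against naive B-like cells the number was lower in 3 of 3 YFP+ libraries with at least 30 assigned cells, by 0.55 on the log2 scale on average (exact paired permutation p = 0.25, the smallest value 3 libraries allow).

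Usage in GCB-like cells could not be tested with at least 2 UMIs for the leading gene, since no Ighv gene passed the filter on low counts in the 3 libraries with at least 30 assigned cells. Counting a leading gene from 1 UMI, 6 genes were tested and Ighv3-6 was called lower in cKO (edgeR adjusted p 0.000356). It led 35 of 650 and 53 of 1143 cells in control YFP+ and 0 of 126 and 0 of 72 in cKO YFP+. With no cell led in cKO it passed the filter through control alone, so its direction is no independent result. In the test of summed UMIs 1 of 32 Ighv genes was called, where 1.23% of all 12142 genes tested were called. Of the 32, 15 reached the count minimum of the filter in both control libraries but not in both cKO libraries, and 3 the other way round, so the balance of directions is no result. Without cKO YFP+ 2 the calls were 1 higher and 3 lower (1.51% of all genes called), without control YFP+ 2 6 lower (8.90%), and without cKO YFP+ 1 (1.55%) or control YFP+ 1 (5.99%) 2 lower. The called gene was Ighv3-6, 1 of the 15, at 3.79 and 2.90 CPM in control YFP+ and 0.152 and 0 CPM in cKO YFP+ (log2 fold change −4.13 ± 0.68 SE, edgeR adjusted p 0.0231). It had 102 and 124 UMIs in control, spread over 66 and 115 cells, and 1 and 0 in cKO. It led 13 of 158 and 7 of 109 cells in control, and 0 of 36 and 0 of 14 in cKO, which allows shares of up to 8.33% and 21.4%. In the total libraries Ighv3-6 had 3 and 0 UMIs in 60 and 49 GCB-like cells of control and 8 and 9 in 177 and 238 of cKO, where it took 3.86% and 4.39% of Ighv UMIs. With the batch number as a block 4 Ighv genes were called, all lower in cKO, where 8.90% of all genes were called in the same fit: Ighv3-6, Ighv14-3, Ighv6-3 and Ighv9-3, each of which reached the count minimum in both libraries of control alone. Without the block Ighv14-3 stood at 1.82 and 5.87 CPM in control and 0 and 0.255 CPM in cKO (log2 fold change −4.31 ± 0.95 SE, edgeR adjusted p 0.0750). The limit of the block fit given above holds here too.

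Ighv3-6 was not missing from other cKO cells. It led 4.25% and 3.96% of naive B-like cells in cKO YFP+, and 1 of 86 and 5 of 70 plasma cell-like cells, taking 22.2% of all Ighv UMIs of those cells in cKO YFP+ 2.

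A B-lineage cluster that fulfilled no class name (3643 cells, marked by genes such as Pstpip2, Il5ra and Fcrl5) was most often assigned Ighv9-3 (26 of 347 assigned cells, 7.49%) and Ighv3-6 (21 cells, 6.05%), both common in naive B-like cells too. Ighv11-2 and Ighv7-3 followed with 20 cells each (5.76%). By library Ighv11-2 led 1 of 41 and 6 of 42 for control total, 3 of 24 and 2 of 24 for cKO total, 5 of 76 and 0 of 31 for control YFP+, and 2 of 57 and 1 of 52 for cKO YFP+. Ighv12-3 led 10 (2.88%), all in control libraries. It led none of the 24 and 24 cells of cKO total and 57 and 52 of cKO YFP+, too few to show that it is absent there. In naive B-like cells Ighv11-2 and Ighv12-3 led 1 and 3 of 5112 assigned cells. The Ighv1 family led 17.1% to 44.2% of the cells of this cluster (median 23.8% over 6 libraries with at least 30 assigned cells), below its range of 46.9% to 56% in naive B-like cells. The cluster was built without immunoglobulin genes, and no test between clusters was made. B1 cells are self-renewing B cells, and Ighv11-2 and Ighv12-3 are known from the literature for those B1 cells that bind phosphatidylcholine. Of the marker lists used here the B1 list scored highest in the cluster. All 7 of its markers (Zbtb32, Cd5, Bhlhe41, Plscr1, Itgb1, Ctla4 and Ahr) were seen in at least 10% of the cells. None of the 7 was among the 10 leading genes of the cluster, while 1 marker of another list was, and by the naming rule it stays unnamed. In marginal zone B-like cells Ighv9-3 had the highest mean share in both total groups, at 7.13% ± 3.66 in control and 11.0% ± 0.171 in cKO (SD, n = 2).

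The genes that recombine, transcribe and mutate V regions were read in the same libraries. Of 21 listed, 17 or 18 were expressed enough to be tested in each class. Rag1, Rag2 and Dntt, which build the receptor in the bone marrow, were never tested. None of those tested, among them the B cell transcription factors Pax5 and Ebf1, was called in naive B-like cells of either sort or in GCB-like or plasma cell-like YFP+ cells (edgeR). The medians of their log2 differences were −0.07, −0.07, 0.00 and −0.03, beside 0.02, 0.00, −0.01 and 0.00 over all genes. With the batch number as a block, several of them were called by edgeR, where 15.8% (YFP+ naive), 17.8% (total naive), 8.90% (GCB-like) and 2.10% (plasma cell-like) of all genes were called, against 0.764%, 0.0632%, 1.23% and 1.11% without it. Apex1, a base excision repair gene, was then higher in cKO in YFP+ naive B-like cells (log2 fold change 1.35, adjusted p 0.00123), total naive B-like cells (1.10) and GCB-like cells (0.63, adjusted p 0.00156). Ebf1 was lower in YFP+ naive B-like cells (−0.28, adjusted p 0.0226) and GCB-like cells (−0.60, adjusted p 0.0276). Pou2f1 was lower in total naive B-like cells (adjusted p 0.0204), Apex2 was lower in GCB-like cells (adjusted p 0.0377), and Pax5 was higher in plasma cell-like cells (0.91, adjusted p 0.0312). Without the block the unadjusted p was under 0.05 for Apex1 in each of these classes, for Ebf1 and Apex2 in GCB-like cells and for Pax5 in plasma cell-like cells. The p-values of the block fits lean on the spread shared over genes, as said above.

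Of 13 receptor partner and constant region genes, 11 were tested. In YFP+ naive B-like cells 4 were called. Ighe stood at 8.31 and 12.7 CPM in cKO and at 0.430 and 0.807 CPM in control (log2 fold change 3.89 ± 0.42 SE, edgeR adjusted p 0.0152), while Ighg2c (−3.91, adjusted p 0.0130), Ighg2b (−3.75, adjusted p 0.00453) and Ighg3 (−3.47, adjusted p 0.0247) were lower in cKO. In YFP+ GCB-like cells Ighe was higher (81.1 and 182 CPM against 4.24 and 6.76 CPM, log2 fold change 4.59 ± 0.42 SE, adjusted p 0.00118) and Ighg3 lower (−2.16 ± 0.39 SE, adjusted p 0.0336). In plasma cell-like cells no gene of the list was called, and Ighe stood at 4515 and 18593 CPM in cKO against 109 and 49.7 CPM in control (log2 fold change 7.21, adjusted p 0.0527). In total naive B-like cells 0 of 11 were called. Ighm did not pass the test in any of the 4 comparisons. With the batch block more genes of this list were called (edgeR): Cd79b higher (adjusted p 0.00817) and Igha lower in YFP+ naive B-like cells, and Cd79b (adjusted p 0.00634) and Ighe higher in total naive B-like cells. In GCB-like cells the block added Ighm (log2 fold change −2.21), Igha (−2.13), Ighg2c (−1.46) and Ighg2b (−0.58, adjusted p 0.0100) as lower, and Ighg1 (2.08) and Ighd (0.48, adjusted p 0.0303) as higher. In plasma cell-like cells it added Ighg3 as lower (−1.45, adjusted p 0.0263), and Ighe had an adjusted p of 0.329. The same limit of the block fits holds for this list. Control YFP+ libraries held far more plasma cell-like cells than cKO YFP+ libraries. The part of free RNA from them in the γ constant region values of naive B-like cells was not tested. Plasma cell-like cells of the cKO YFP+ libraries held much Ighe RNA (4515 and 18593 CPM). The part of free RNA in the Ighe values of naive B-like and GCB-like cells was not tested either.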

How the data were processed

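The deposited files hold UMI counts per gene and cell from a droplet 3′ kit, whole numbers with no normalization by the authors. Per the labels the build was GRCm38/mm10, and no aligner or counter is named in the sources used here. The members, gene lists and tests were chosen with earlier results of these data known. The filter of the study (over 200 UMIs, over 100 genes, at most 10% mitochondrial UMIs) left 83704 cells in 8 libraries of 71894780 to 105224903 UMIs. Cells were clustered by igraph's Leiden method (resolution 1) on a shared-neighbour graph, with genes scaled within batch, and named by marker lists. Immunoglobulin, T cell receptor, ribosomal protein, mitochondrial and some sex-linked genes were left out of the clustering. Doublets (scored in scanpy 1.11.5) were kept, and their removal was tried. Pairs of libraries shared 51 to 102 barcodes.

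Counts were summed per class and library with at least 20 cells and tested with edgeR 4.0.16 in R 4.3.3 (TMM, filterByExpr, quasi-likelihood), within 1 sort, with a threshold of 0.05 on the Benjamini-Hochberg adjusted p over all genes. Usage (cells led by each gene) was tested likewise in libraries with at least 30 assigned cells. Single values were tested by exact permutation. Intervals are 95% Wilson, and limits for a count of 0 take 3 counts. Both cover counting error only. Batch numbers pair the libraries per the labels, and deviations of same-numbered libraries correlated at 0.475 (YFP+ naive), 0.602 (total naive), 0.285 (GCB) and 0.244 (plasma) over all genes tested, and at −0.459 to 0.149 for usage over 4 to 34 Ighv genes. The scripts were tested on simulated data.

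Named genes were the 3 leading genes per class and group, every called Ighv gene, the leading gene of each library in GCB-like and plasma cell-like cells, the families, and the 2 gene lists, of which some members are not reported here. Others named with their kappa partner, and Ighv11-2 and Ighv12-3, were chosen after their values were seen. Positions come from GENCODE vM21. Alternatives were DESeq2 1.42.0, no filter, the batch block, all 8 libraries, resolution 1.5, doublets removed, other thresholds for the leading gene, another evenness measure, and leaving out each library.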

Additional observations from a re-analysis of the deposited data

How the results depend on the processing

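Of 152 alternative values over the comparisons, 129 kept their direction or stayed within 1.5 times the reported count, 14 moved and 9 turned sign. In GCB-like YFP+ cells the count of called Ighv genes was 1 as reported, 2 by DESeq2, 7 without the filter (0 higher, 7 lower), 4 with the replicate block, and 2 to 6 with 1 library left out. In plasma cell-like YFP+ cells it was 8 as reported, 17 with the replicate block, 0 with all 8 libraries in 1 model, and 4 to 31 with 1 library left out: 31 without cKO YFP+ 1, 29 without cKO YFP+ 2 and 4 without control YFP+ 1. In these fits the lone library is assumed to vary like the other group. In naive B-like YFP+ cells it was 0 to 1 with 1 library left out, 1 without control YFP+ 1. Counting a leading gene from 1 UMI, 1 of 6 Ighv genes, Ighv3-6, was called in GCB-like usage, lower in cKO. It led no cell in cKO YFP+ and passed the filter through control alone. The replicate block ended the call of Ighv1-9 and of no other called Ighv gene, and it added calls. Of the named genes these were Ighv14-3, Ighv4-1, Ighv9-4 and Ighv1-47 in plasma cell-like cells and Ighv14-3, Ighv6-3 and Ighv9-3 in GCB-like cells. In the gene lists the block added the calls given beside them and ended none. Block fits leave little to measure the spread of each gene, so their p-values lean on the spread shared over genes. Of the called genes, Ighv3-6 stayed called in every alternative that kept all libraries. Ighv4-2, Ighv1-14, Ighv1-69, Ighv5-17 and Ighv1-77 did so in all of these but the model of all 8 libraries. Ighv1-9 was lost there and with the block, and Ighv2-6-8 there and by DESeq2. Ighv14-1 was lost by DESeq2 and was not tested in the model of all 8 libraries. Ighv3-6 and 6 of the 8 plasma cell-like genes reached the count minimum in both control libraries but not in both cKO libraries. Each gene kept 1 direction, which for these is no independent result, and all fits reuse the same libraries.

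The log2 ratio of effective numbers turned sign with the exponential of the Shannon entropy (0.38 in YFP+ naive, 0.10 in total naive, −0.64 in plasma cell-like cells), a measure that grows with the number of assigned cells, and with at least 3 UMIs in total naive cells (0.058). The range over fits lacking 1 library was −0.40 to 0.037 in YFP+ naive, −0.12 to 0.082 in total naive, −0.57 to 0.23 in GCB-like and −0.15 to 0.57 in plasma cell-like cells. It turned without control YFP+ 2 in YFP+ naive and plasma cell-like cells, without cKO YFP+ 1 in GCB-like cells, and without cKO total 1 or control total 1 in total naive cells. Against naive B-like cells the mean difference was negative in every alternative run for GCB-like (−0.69 to −0.38) and plasma cell-like cells (−0.76 to −0.36), but control YFP+ 1 turned in plasma cell-like cells with the Shannon entropy and with at least 3 UMIs. The cause was not tested. In all, 18 settings, mostly usage fits with few genes left after filtering or 1 library left out, could not be fitted and were not run.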
